A study of Homo sapiens with 12 samples.

Results

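The genes described here lie in the first 20 Mb of chromosome 6, the distal end of its short arm (6p), and were followed in HEL cells, an established human erythroleukemia line of acute myeloid leukemia (AML), after relapse from chemotherapy. A gene was taken when its annotated position fell on chromosome 6 alone and the midpoint of its smallest start and largest end lay between base 1 and base 20000000 of GRCh38. Of the 26481 genes with counts in the table, 130 lay in this window, and 67 of them held 10 or more counts in at least 2 samples. These 67 genes are called the distal 6p genes below. All but C6orf52 also passed edgeR's filter on low counts, so that 66 of the 14164 tested genes were distal 6p genes. The 63 genes of the window under the minimum, 29 of them without a count in any library, are not described further.

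RNA was sequenced from bulk cultures of a barcoded HEL subline in 4 groups. The untreated group (NT, n = 2) was grown with 0.1 µM DMSO. Relapses of the Doxo group (n = 3) had received 1.8 µM doxorubicin, those of the Doxo+Cyta group (n = 3) 6 µM cytarabine in addition, and those of the Doxo+Cyta+DAC group (n = 4) also 0.1 µM decitabine. Doxorubicin damages DNA through topoisomerase II, cytarabine stops DNA synthesis, and decitabine (DAC) is a cytosine analogue that traps DNA methyltransferases. Cells of every group were seeded at the same number, exposed for 72 to 74 h, washed, freed of dead cells and regrown for about 30 days. All groups come from 1 cell line and carry the same barcode library, the samples of a group are described as biological replicates, and no batch is labelled.

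Distal 6p is gene-poor for its length compared with the histone and major histocompatibility clusters that lie next to it, and its genes have little function in common. Several are well known in blood cells. DEK encodes a chromatin protein found in a fusion with NUP214 in some AML, JARID2 is a subunit of Polycomb repressive complex PRC2, TMEM14C carries a heme precursor into mitochondria of erythroid cells, and RIPK1 is a kinase of inflammatory and cell death signalling.

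The window was selected because the levels of its genes lay below NT in relapses. Differences from NT are therefore given as a description, without a p-value, and nothing is concluded from their direction. The distal 6p genes nearest to the inner border of the window were DEK and RNF144B, and the first tested genes beyond it were MBOAT1 and E2F3. Relative to the NT mean, log2 CPM (counts scaled to the size of the library, on the log2 scale) in Doxo libraries 4, 5 and 6 differed by -0.93, -0.61 and -0.51 for DEK, by -0.63, -0.66 and 0.07 for RNF144B, by -0.68, -0.41 and -0.35 for MBOAT1 and by -0.32, -0.19 and -0.23 for E2F3. In Doxo+Cyta+DAC 30, 31, 32 and 33 MBOAT1 and E2F3 differed from NT in opposite directions. MBOAT1 was at -1.73, -1.37, -1.64 and -1.86, and E2F3 at 0.62, 0.98, 0.77 and 0.53. At the count minimum, DSP with at most 12 counts and C6orf52 with at most 25 were the last genes kept, each with 10 counts in 2 samples. LOC100130357, PXDC1 and TUBB2B, with at most 12, 11 and 10 counts, reached 10 in 1 sample and were left out.

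Total counts ranged from 12763582 to 19106235 per library, and 3 counts corresponded to between 0.157 and 0.235 CPM, a limit that covers counting error only. TMM scaling factors, edgeR's correction for RNA composition, lay between 0.956 and 1.07. All 9 erythroid and megakaryocytic markers examined, among them GATA1, KLF1, HBG1 and ITGA2B, lay between 35.4 and 6408 CPM in every library, and 6 of 8 markers of T cells, B cells, fibroblasts and epithelium stayed below 1 CPM throughout, with CD79A at 0.894 to 6.00 CPM and COL1A1 at no more than 1.27 CPM. In bulk RNA, fewer cells that express a gene and less RNA of that gene per cell cannot be told apart.

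The median distal 6p gene lay below NT in 9 of 10 relapses. The median log2 CPM difference from the NT mean was -0.70, -0.61 and -0.61 in Doxo 4, 5 and 6, or 61.6%, 65.7% and 65.7% of the NT level. It was -0.47, -0.62 and -0.34 in Doxo+Cyta 19, 20 and 22. With decitabine added it was -0.63, -0.39 and -0.76 in libraries 30, 32 and 33, and 0.04 in library 31, which is 103% of the NT level. The Doxo medians averaged -0.64 ± 0.05 (SD, n = 3), and those of Doxo+Cyta averaged -0.47 ± 0.14 (SD, n = 3). The 4 decitabine medians averaged -0.44 ± 0.35 (SD), and the 3 of them other than library 31 averaged -0.60 ± 0.19 (SD). The ranges of the 3 groups overlapped, with or without that library.

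**Figure D1:**
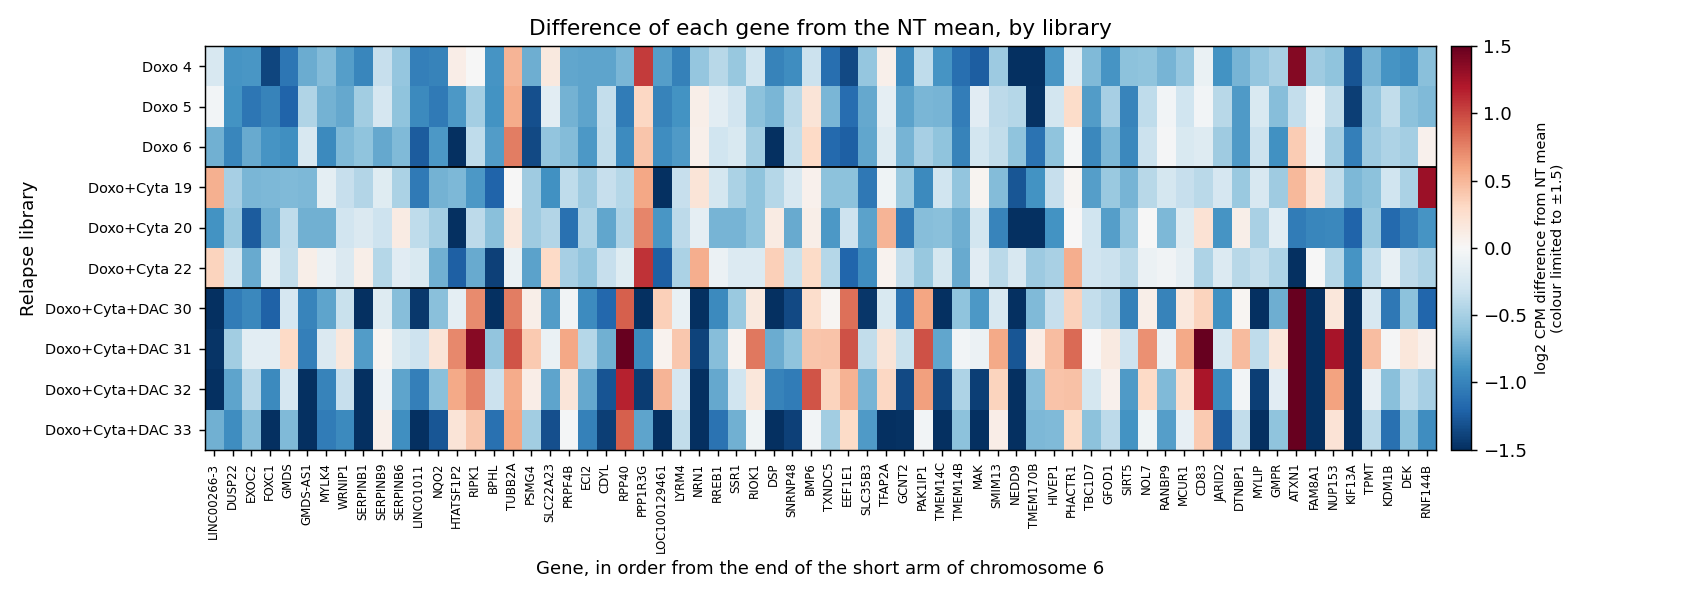
log2 CPM difference from the NT mean (colour, limited to ±1.5) for the 66 tested distal 6p genes in chromosome order (columns) and the 10 relapse libraries (rows; black lines separate Doxo, Doxo+Cyta and Doxo+Cyta+DAC). Blue fills most columns in all rows but Doxo+Cyta+DAC 31, and the decitabine rows carry deeper blue and red columns than the other rows.

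The window was set beside the rest of the genome in the same libraries. Its low level there led to its choice, so its rank is a description and no test. Among 152 windows of 20 Mb with at least 20 tested genes, distal 6p had the lowest median in 8 relapses: all 3 Doxo, all 3 Doxo+Cyta, and Doxo+Cyta+DAC 30 and 33. It was the fourth lowest in Doxo+Cyta+DAC 32, at -0.39 against -0.47 for the lowest window of that library, and ranked 91 of 152 from the lowest in Doxo+Cyta+DAC 31. In Doxo the next lowest windows had medians of -0.44, -0.34 and -0.32. In the 2 NT libraries, whose mean is the reference, the window lay at -0.01 and 0.01. The next 20 Mb of chromosome 6, with 258 tested genes, differed from NT by -0.03 to -0.08 in Doxo and by 0.02 to 0.12 in Doxo+Cyta, whereas the decitabine libraries were at -0.20 to -0.12.

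Within the window the lower level was spread along its whole length. In steps of 2.5 Mb, which held 4 to 17 tested genes over the first 25 Mb, all 10 step medians from the chromosome end lay below 0 in 8 relapse libraries, 9 of 10 in Doxo+Cyta+DAC 32 and 1 of 10 in Doxo+Cyta+DAC 31. The pattern thus ran past the inner border of the window through steps 9 and 10, where the Doxo medians were -0.29 to -0.55 and the Doxo+Cyta medians -0.24 to -0.69. In step 11, from base 25000001 to 27500000, medians were -0.21, 0.06 and 0.09 in Doxo and -0.01, 0.07 and 0.15 in Doxo+Cyta. Doxo+Cyta+DAC 30, 32 and 33 were at -0.19, -0.04 and -0.17 in step 10 and lower, at -0.51, -0.45 and -0.60, in step 11. Library 31 was at 0.09 in step 10 and at -0.10 in step 11. In step 12, libraries 30, 31, 32 and 33 were at -0.60, -0.54, -0.31 and -0.50. Whether these values of steps 11 and 12 belong to the pattern of the window was not tested.

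**Figure D2:**
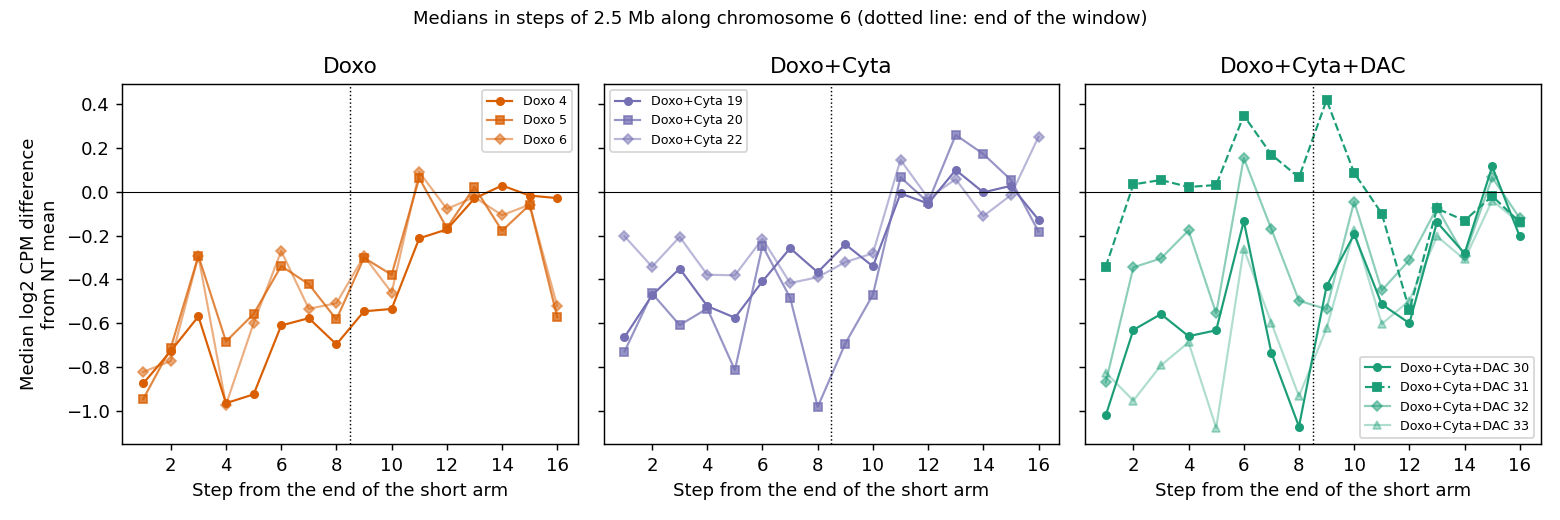
Median log2 CPM difference from the NT mean (vertical axis) in successive steps of 2.5 Mb from the end of the short arm (horizontal axis), with 1 line per relapse library in 3 panels. Lines of Doxo and Doxo+Cyta stay below 0 over steps 1 to 10 and between -0.21 and 0.26 over steps 11 to 15. At step 16, with 9 genes, Doxo 5 and 6 are at -0.57 and -0.52 and the other Doxo and Doxo+Cyta lines at -0.18 to 0.25. The dashed line of Doxo+Cyta+DAC 31 runs above the other 3 decitabine lines over steps 1 to 10.

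Doxo+Cyta+DAC 31 departed from its group across distal 6p as a block. Relative to the mean of libraries 30, 32 and 33, its log2 CPM was higher by a median of 0.64, or 1.56-fold, with quartiles of 0.49 and 0.79 over the 66 genes. All 45 genes with a mean of at least 5 CPM were highest of the 4 libraries in library 31, with differences of 0.30 to 1.22, and 57 of all 66 (86.4%) were, against 27.6% of all tested genes. The 9 exceptions were LINC00266-3, GMDS-AS1, SERPINB9, BPHL, PPP1R3G, LOC100129461, BMP6, TFAP2A and KIF13A, each with a mean under 5 CPM. Only KIF13A was lowest in library 31. Of the 152 windows this one had the highest median for library 31, followed by 0.36 for a window of chromosome 3. The second 20 Mb of chromosome 6 had 0.07. Library 31 departed from its group elsewhere too, at 0.34 and 0.28 in windows 2 and 3 of chromosome 18. Its lowest median was -0.53, in window 8 of chromosome X.

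The excess of library 31 was of similar size from the chromosome end inwards and then became smaller. Its step medians were between 0.53 and 0.79 over steps 1 to 8, 0.46 in step 9, 0.32 in step 10, 0.14 in step 11, 0.13 in step 12 and at most 0.07 in steps 13 to 16. Each other decitabine library was likewise set against the mean of the rest of its group, library 31 included. Library 33 then had the lowest median of the 152 windows in distal 6p, at -0.40. Library 30 had the second lowest, at -0.22, and library 32 lay at 0.02. The high values of library 31 in those means lower all of these medians, so their ranks are not independent of library 31. Library 31 held 14956918 counts and had a TMM factor of 0.973, both inside the range of the others. With 1 such library no test of its difference could be made, and what distinguishes its culture is not given in the labels.

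**Figure D3:**
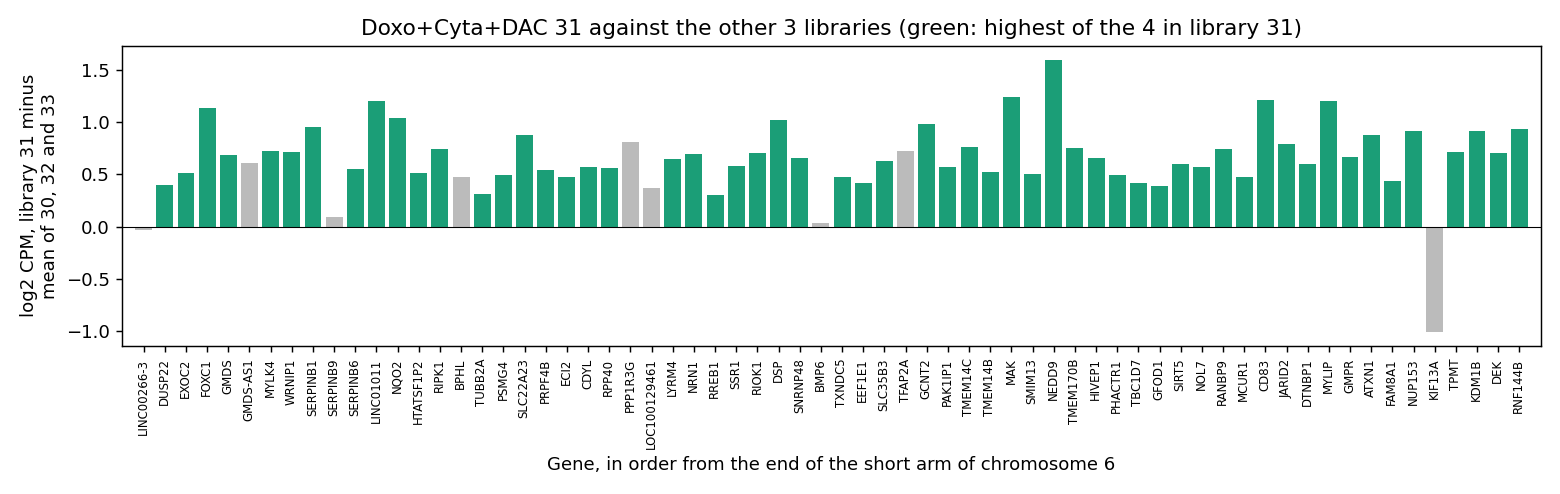
log2 CPM in Doxo+Cyta+DAC 31 minus the mean of libraries 30, 32 and 33 (vertical axis) for the 66 tested genes in chromosome order (horizontal axis), with green bars where library 31 is the highest of the 4 and grey bars elsewhere. Green bars run along the whole window, and KIF13A is the 1 deep bar below 0.

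Gene by gene, a gene was said to follow the lower level in a library when it lay below both NT libraries and at least 0.3 below their mean on the log2 scale, and to break it when it lay above both and at least 0.3 above. In Doxo 4, 5 and 6, 56, 49 and 50 of 66 genes followed, where 19.0%, 28.3% and 27.8% of all tested genes did, and 3, 2 and 4 broke, where 21.6%, 27.1% and 26.7% did. In Doxo+Cyta 19, 20 and 22, 47, 49 and 35 followed against 20.4%, 27.5% and 20.9% of all genes, and 4, 2 and 5 broke against 20.2%, 29.4% and 19.7%. The genes that broke in these 6 libraries were TUBB2A in all 3 Doxo, PPP1R3G in all 6, ATXN1 in 3, LINC00266-3 in 2, and BMP6, RNF144B, TFAP2A, NRN1, DSP and PHACTR1 in 1 each. All but TUBB2A, NRN1 and PHACTR1 of them had means under 5 CPM.

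Decitabine libraries 30, 31 and 32 held more genes that broke than any Doxo or Doxo+Cyta library, and library 33 held as many as Doxo+Cyta 22. Over all tested genes the share above NT was larger as well, at 33.5% to 34.9% against 19.7% to 29.4%. In libraries 30, 32 and 33, 41, 37 and 49 genes followed against 33.7%, 33.4% and 32.7% of all tested genes, and 8, 17 and 5 broke against 34.8%, 34.9% and 33.5%. In library 31, 21 followed and 23 broke, against 34.7% and 33.9% of all genes, so that its shares were near those of the genome. The 8 that broke in library 30 were RIPK1, TUBB2A, RPP40, EEF1E1, PAK1IP1, PHACTR1, CD83 and ATXN1, and 5 of them, RIPK1, TUBB2A, RPP40, CD83 and ATXN1, broke in all 4 decitabine libraries. Library 32 added HTATSF1P2, LOC100129461, BMP6, TXNDC5, TFAP2A, SMIM13, HIVEP1, NOL7 and NUP153. GMDS, PSMG4, PRPF4B, LYRM4, RIOK1, MCUR1, DTNBP1 and TPMT broke in library 31 alone.

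All 10 relapse libraries share the same 2 NT libraries as reference, so counts over libraries are not independent. BPHL, ECI2, CDYL, SLC35B3, GCNT2, SIRT5 and KIF13A followed in all 10, as did 0.953% of all tested genes. EXOC2, NQO2, TMEM14B, TMEM170B and DEK followed in every library but Doxo+Cyta+DAC 31. In all 3 Doxo libraries 43 genes followed (9.96% of all genes), in all 3 Doxo+Cyta libraries 27 (6.07%) and in all 4 decitabine libraries 21 (22.9%). The same 21 genes were those that followed in library 31. RPP40, EEF1E1 and PAK1IP1 followed in every Doxo library and broke in at least 3 decitabine libraries, TUBB2A and PHACTR1 followed nowhere, and 36 genes broke nowhere.

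Promoter sequences are shown for 4 genes, 1 of each pattern, because decitabine acts on the methylation of cytosines in CG dinucleotides. KIF13A followed in all 10 libraries, DEK in all but 1, RPP40 followed in Doxo and broke in every decitabine relapse, and TUBB2A never followed. Each sequence holds 250 bases before and 50 after the RefSeq start (GRCh38.p14), read 5′ to 3′ on the gene's strand, and capitals mark each CG, a motif that is the same on both strands.
KIF13A (chr6:17987586-17987885, minus strand): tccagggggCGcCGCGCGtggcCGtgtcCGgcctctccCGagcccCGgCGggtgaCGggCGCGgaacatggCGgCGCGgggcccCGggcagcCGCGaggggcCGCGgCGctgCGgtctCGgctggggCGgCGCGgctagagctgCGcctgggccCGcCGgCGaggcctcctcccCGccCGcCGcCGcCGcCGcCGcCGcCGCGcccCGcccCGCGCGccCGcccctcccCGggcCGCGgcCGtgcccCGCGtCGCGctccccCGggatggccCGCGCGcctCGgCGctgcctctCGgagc
DEK (chr6:18264481-18264780, minus strand): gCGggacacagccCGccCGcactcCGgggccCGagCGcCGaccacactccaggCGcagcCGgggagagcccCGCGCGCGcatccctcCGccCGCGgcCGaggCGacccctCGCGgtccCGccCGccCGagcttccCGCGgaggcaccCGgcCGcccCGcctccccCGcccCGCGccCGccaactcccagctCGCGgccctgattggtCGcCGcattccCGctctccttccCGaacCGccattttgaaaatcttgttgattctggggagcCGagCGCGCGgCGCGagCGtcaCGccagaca
RPP40 (chr6:5003988-5004287, minus strand): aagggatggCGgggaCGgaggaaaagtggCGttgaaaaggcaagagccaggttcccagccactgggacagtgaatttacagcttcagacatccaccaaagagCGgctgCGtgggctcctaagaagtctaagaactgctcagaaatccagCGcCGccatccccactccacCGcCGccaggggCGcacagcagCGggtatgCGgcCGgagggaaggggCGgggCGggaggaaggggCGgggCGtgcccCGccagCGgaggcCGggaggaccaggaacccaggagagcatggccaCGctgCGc
TUBB2A (chr6:3157495-3157794, minus strand): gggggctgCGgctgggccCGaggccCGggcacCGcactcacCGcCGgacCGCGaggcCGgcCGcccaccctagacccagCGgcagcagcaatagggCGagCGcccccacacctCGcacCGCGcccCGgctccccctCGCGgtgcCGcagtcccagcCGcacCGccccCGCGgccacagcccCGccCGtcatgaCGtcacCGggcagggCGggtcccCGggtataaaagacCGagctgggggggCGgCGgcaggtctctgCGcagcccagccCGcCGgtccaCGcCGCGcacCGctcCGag
These windows hold 60, 47, 22 and 41 CG dinucleotides. Of the 66 tested distal 6p genes, 57 had an entry in the promoter table, with a median of 29 CG (1 to 60), against 26 for 10260 tested genes with an entry. The 18 entries among the 21 genes that followed in all decitabine libraries had a median of 28, and the 5 genes that broke in all of them had 22, 6 being the lowest of these. At least 15 CG stood in 87.7% of the distal 6p windows and in 79.4% of those of all tested genes. DNA methylation itself was not analysed here, so the letters describe the windows only.

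The level of DEK illustrates the shared pattern. DEK, at chr6:18224169-18264568 near the inner border, had 168 and 169 CPM in NT, 88, 110.2 and 118 in Doxo, 121, 82 and 128 in Doxo+Cyta, with 110.0, 189, 129 and 110.3 in Doxo+Cyta+DAC, in the order of libraries 1 and 2, 4 to 6, 19, 20 and 22, and 30 to 33, which is kept throughout. Every relapse but Doxo+Cyta+DAC 31 lay below both NT libraries, and that library lay above them. Its fitted log2 fold change from NT was -0.67 ± 0.23 (SE) in Doxo and -0.61 ± 0.23 in Doxo+Cyta. It was -0.32 ± 0.22 in Doxo+Cyta+DAC, or -0.53 ± 0.18 in a fit without library 31.

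Over whole groups, the share of distal 6p genes called by edgeR's quasi-likelihood test at an adjusted p under 0.05 was as follows. In Doxo against NT 20 were lower (4.63% of all genes were) and none higher (6.07%), at a median log2 fold change of -0.64 against 0.01 for all genes, and 61 of 66 had a negative value. At an unadjusted p under 0.05, 38 were lower (13.2% of all genes were) and 1 higher in Doxo. DESeq2 called 29 there, all lower except TUBB2A, where it called 6.93% of all genes lower. In Doxo+Cyta against NT none was called in either direction (0.551% lower and 0.911% higher of all genes), at a median of -0.45 with 57 negative values. At an unadjusted p under 0.05, 26 were lower (8.82% of all genes were) and none higher there. DESeq2 called 4 lower (2.34% of all genes): EXOC2, ECI2, SLC35B3 and TMEM14B. In Doxo+Cyta+DAC against NT 26 were lower (23.7%) and 7 higher (24.9%), at a median of -0.43 with 46 negative values, and without library 31 36 were lower (22.7%) and 5 higher (24.0%), at a median of -0.61. Nothing is read from these counts, since the window was chosen on the same contrasts. The 20 calls in Doxo rest on both NT libraries, with 0 lower without NT 1 and 1 without NT 2, and with 7 without Doxo 5 or without Doxo 6.

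The contrast that led to the choice of the window is not stated. Contrasts between relapse groups rest on the same relapse libraries, so the choice may bear on their counts and p-values, which are given as a description. In Doxo+Cyta+DAC against Doxo 13 genes were lower (30.4% of all tested genes) and 24 higher (29.1%), and against Doxo+Cyta 16 were lower (30.5%) and 18 higher (29.8%). The calls within distal 6p were thus about as frequent as elsewhere and pointed in both directions. Of these calls, 25 of the 37 and 23 of the 34 held in every alternative fit that tested the gene, and no fit turned a direction. KIF13A and PPP1R3G, among others, were tested in 12 alternative fits of each contrast, where most genes were tested in 13. The median log2 fold changes were 0.26 and 0.15, and without library 31 they were 0.08 and -0.05, with 24 genes then lower than in Doxo+Cyta (29.1%) and 14 higher (28.6%). Leaving out Doxo 5, or keeping only genes with 10 counts in every sample, gave 8 genes lower than in Doxo. Between Doxo+Cyta and Doxo none was called by edgeR in either direction (2.32% lower, 1.07% higher), at a median of 0.18. At an unadjusted p under 0.05, 1 was lower (9.88% of all genes were) and 12 were higher. DESeq2 called TUBB2A lower (4.03% of all genes were) and DUSP22 higher there.

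The 7 tested genes of RNA processing, ribosome assembly and translation were PRPF4B, RPP40, RIOK1, SNRNP48, EEF1E1, PAK1IP1 and NOL7. In Doxo against NT, PRPF4B, RPP40 and EEF1E1 were called lower (4.63% of all tested genes were). In Doxo+Cyta+DAC 6 of the 7 were higher than in Doxo (29.1% of all tested genes were) and the same 6 were higher than in Doxo+Cyta (29.8%), and SNRNP48 was lower than in both (30.4% and 30.5%). No difference between role lists was tested.

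RPP40 (chr6:4995046-5004063) encodes a protein subunit of the ribonucleases P and MRP, which process transfer and ribosomal RNA. It had 7.3 and 5.0 CPM in NT, 3.7, 2.85 and 3.09 in Doxo, 4.45, 4.33 and 5.31 in Doxo+Cyta, with 11.3, 17.8, 13.6 and 11.3 in Doxo+Cyta+DAC. All 4 decitabine relapses lay above every other library and all Doxo libraries lay below NT. Its log2 fold change was 2.07 ± 0.22 (SE) against Doxo (edgeR adjusted p = 3.31e-06) and 1.52 ± 0.21 against Doxo+Cyta (edgeR adjusted p = 2.6e-05), and -0.94 ± 0.25 in Doxo against NT. RPP40 shares bases with LOC100129461 on the other strand, and the counting ignored strand, so that reads from there may have been left out of both counts.

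PAK1IP1, a nucleolar protein needed for the large ribosomal subunit, had 16.4 and 17.3 CPM in NT, 12.9, 10.4 and 11.9 in Doxo, 8.65, 10.7 and 11.3 in Doxo+Cyta, with 25.4, 32.8, 25.8 and 16.4 in Doxo+Cyta+DAC. Every library of Doxo and Doxo+Cyta was below NT, and 3 of 4 decitabine relapses were above it, with library 33 at the NT level. The difference was 1.1 ± 0.20 against Doxo (edgeR adjusted p = 0.000301) and 1.3 ± 0.20 against Doxo+Cyta (edgeR adjusted p = 7.55e-05). EEF1E1, a scaffold of the multi-tRNA synthetase complex, had 1.95, 2.27 and 2.15 CPM in Doxo and 9.24, 10.2, 7.5 and 6.33 in Doxo+Cyta+DAC, a difference of 1.96 ± 0.24 (edgeR adjusted p = 1.32e-05). Reads that fit both EEF1E1 and the EEF1E1-BLOC1S5 readthrough may have been left out.

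PRPF4B, a kinase of the spliceosome, and RIOK1, a kinase of small-subunit maturation, were likewise higher in Doxo+Cyta+DAC than in Doxo, by 0.91 ± 0.18 (edgeR adjusted p = 0.000598) and 0.77 ± 0.19 (edgeR adjusted p = 0.00272). Against NT their decitabine values were 0.19 and 0.30, without a call. NOL7, a nucleolar protein, was higher by 0.71 ± 0.17 than in Doxo (edgeR adjusted p = 0.0031), and its smaller difference from Doxo+Cyta was lost without library 31 and under several other settings. SNRNP48, of the minor spliceosome, went the other way. It had 31.2 and 29.8 CPM in NT, 16, 23 and 23.7 in Doxo, 25.8, 18.1 and 24.2 in Doxo+Cyta, with 11.9, 20.0, 14.7 and 11.5 in Doxo+Cyta+DAC. SNRNP48 was lower than in Doxo+Cyta by -0.65 ± 0.20 (edgeR adjusted p = 0.0129), a call lost only without Doxo+Cyta 19. Its call against Doxo was less firm and was lost in 6 of 13 alternative fits, among them the one with only the groups compared.

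Among 9 tested regulators of transcription and chromatin, 4 were called lower in Doxo+Cyta+DAC than in NT (FOXC1, CDYL, RREB1 and JARID2), where 23.7% of all tested genes were, and 1 was higher (ATXN1), where 24.9% were. None of the 9 was called by edgeR in Doxo or Doxo+Cyta against NT. As for the other lists, nothing is read from calls against NT. CDYL, a reader of repressive histone marks, had 61.5 and 57.3 CPM in NT, 34.3, 46.4 and 45.8 in Doxo, 46.7, 34.5 and 46.8 in Doxo+Cyta, with 26.3, 35.9, 24.1 and 22.2 in Doxo+Cyta+DAC. The decitabine libraries were the lowest except that library 31 lay within the range of Doxo and Doxo+Cyta, and the log2 fold change was -0.64 ± 0.17 against Doxo (edgeR adjusted p = 0.00561) and -0.66 ± 0.17 against Doxo+Cyta (edgeR adjusted p = 0.0045). RREB1, a zinc-finger factor that responds to RAS signalling, was lower by -0.57 ± 0.15 and -0.53 ± 0.15 in the same contrasts (edgeR adjusted p = 0.00451 and 0.00698). JARID2 had 87.8 and 92.8 CPM in NT, 48.6, 67.4 and 62.3 in Doxo, 75.5, 48.7 and 78.2 in Doxo+Cyta, with 47.9, 76.4, 47 and 37.9 in Doxo+Cyta+DAC, with no call between relapses other than, without library 31, lower than in Doxo+Cyta. FOXC1, a forkhead factor that is normally low in blood cells and has been linked to a block of differentiation in AML, had 20.2 and 21.2 CPM in NT, 7.88, 10.3 and 11.2 in Doxo, 13, 12.4 and 18.7 in Doxo+Cyta, with 8.88, 18.6, 10.6 and 6.17 in Doxo+Cyta+DAC. All relapses lay below NT in FOXC1, with Doxo+Cyta 22 and Doxo+Cyta+DAC 31 nearest to it, and its call against NT was lost without any of Doxo+Cyta+DAC 30, 32 and 33 or either NT library. ATXN1, a transcriptional co-repressor, stayed at or under 1.26 CPM outside the decitabine relapses and at 1.47, 3.09, 1.42 and 2.06 CPM in them.

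Of the 11 tested genes of mitochondria, heme and metabolism, GMDS, NQO2, ECI2, LYRM4, TMEM14C, TMEM14B and SIRT5 were called lower than NT in Doxo (4.63% of all tested genes were), at a list median of -0.86, and in Doxo+Cyta+DAC BPHL, ECI2, TMEM14C, TMEM14B and SIRT5 were (23.7%). TMEM14C and its neighbouring paralog TMEM14B both lay below NT in every Doxo library, and their fitted differences between Doxo+Cyta+DAC and Doxo had opposite signs. TMEM14C (chr6:10722915-10731129) had 117 and 97.9 CPM in NT, 57.8, 66.1 and 70.5 in Doxo, 87.2, 69.6 and 89.1 in Doxo+Cyta, with 36, 62.5, 41.2 and 33.7 in Doxo+Cyta+DAC. It was lower than in Doxo+Cyta by -0.92 ± 0.18 (edgeR adjusted p = 0.000635) and lower than in Doxo by -0.58 ± 0.18 (edgeR adjusted p = 0.0142), the latter lost without Doxo 6. TMEM14B had 43.8 and 37.4 CPM in NT, 18.3, 19.6 and 20.1 in Doxo, 26.8, 24.4 and 24 in Doxo+Cyta, with 26.6, 39.5, 29.3 and 26.3 in Doxo+Cyta+DAC, and was higher than in Doxo by 0.65 ± 0.15 (edgeR adjusted p = 0.0017). The difference between these 2 genes was not tested, and reads from alike stretches of the pair may have been left out of the counts.

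GMDS, the first enzyme of GDP-fucose synthesis, had 33.1 and 29.6 CPM in NT, 14.7, 13.5 and 16.5 in Doxo, 19.8, 24 and 24.2 in Doxo+Cyta, with 26.3, 38.6, 26.3 and 19.8 in Doxo+Cyta+DAC, and was higher in Doxo+Cyta+DAC than in Doxo by 0.90 ± 0.19 (edgeR adjusted p = 0.00101). SIRT5, a mitochondrial lysine desuccinylase, and ECI2, an isomerase of fatty acid oxidation, were not called in that contrast. SIRT5 had 13.8 and 14.1 CPM in NT, 9.07, 6.98 and 7.07 in Doxo, 8.59, 9.27 and 10.6 in Doxo+Cyta, with 6.86, 11.2, 7.71 and 7.44 in Doxo+Cyta+DAC, below NT in every relapse, and differed between Doxo+Cyta+DAC and Doxo by 0.11 ± 0.18 (edgeR adjusted p = 0.63). For ECI2 that difference was 0.05 ± 0.14 (edgeR adjusted p = 0.798). NQO2, a quinone reductase, had 9.56 and 10.9 CPM in NT, 5.02, 4.83 and 5.55 in Doxo, 6.18, 7.13 and 6.17 in Doxo+Cyta, with 6.55, 11.7, 6.56 and 4.12 in Doxo+Cyta+DAC, with library 31 above NT and the other relapses below it. TPMT, which inactivates thiopurine drugs, and MCUR1, a regulator of mitochondrial calcium uptake, were higher than in Doxo by 0.57 ± 0.18 and 0.60 ± 0.15 (edgeR adjusted p = 0.0145 and 0.00367).

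In the 13 tested genes of the secretory pathway, vesicles, nuclear pore and transport, 5 were called lower than NT in Doxo (EXOC2, TXNDC5, DTNBP1, KIF13A and PSMG4; 4.63% of all tested genes were) and 5 in Doxo+Cyta+DAC (SLC35B3, GCNT2, MYLIP, KIF13A and FAM8A1; 23.7%). KIF13A (chr6:17759183-17987623), a kinesin of endosome transport, had 7.25 and 7.14 CPM in NT, 2.86, 2.62 and 3.47 in Doxo, 4.45, 3.07 and 3.85 in Doxo+Cyta, with 1.29, 0.550, 1.99 and 0.712 in Doxo+Cyta+DAC. The decitabine libraries did not overlap with any other and lay at or under 1.99 CPM, and the gene was lower by -1.33 ± 0.33 than in Doxo (edgeR adjusted p = 0.00318) and by -1.68 ± 0.32 than in Doxo+Cyta (edgeR adjusted p = 0.000475). FAM8A1, a component of the ER-associated degradation complex, had 51.9 and 53.4 CPM in NT, 36.3, 51.3 and 49.8 in Doxo, 60.5, 26.6 and 52.3 in Doxo+Cyta, with 10.2, 16, 11.6 and 13.9 in Doxo+Cyta+DAC. Doxo libraries 5 and 6 and Doxo+Cyta 19 and 22 lay close to NT or above it, whereas the decitabine relapses lay far lower, by -1.83 ± 0.24 and -1.85 ± 0.24 against Doxo and Doxo+Cyta (edgeR adjusted p = 2.05e-05 and 1.6e-05).

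MYLIP, a ubiquitin ligase for the LDL receptor, had 31.1 and 31.5 CPM in NT, 20.9, 26.7 and 25 in Doxo, 26.5, 22.3 and 24.4 in Doxo+Cyta, with 9.0, 23.9, 11.6 and 10.4 in Doxo+Cyta+DAC, and library 31 lay in the range of Doxo and Doxo+Cyta while the other 3 decitabine relapses did not. EXOC2, a subunit of the exocyst, had 22.5 and 21.6 CPM in NT, 12, 10.3 and 12.9 in Doxo, 13.7, 9.2 and 13 in Doxo+Cyta, with 11.2, 19.7, 16.6 and 14 in Doxo+Cyta+DAC, all relapses below NT, and edgeR called it against NT in Doxo and, without library 31, in Doxo+Cyta+DAC. NUP153, a nuclear pore protein, followed in all Doxo and Doxo+Cyta libraries and broke in Doxo+Cyta+DAC 31 and 32. It had 74.5 and 91.4 CPM in NT, 54.1, 64 and 58 in Doxo, 64, 42.3 and 61.2 in Doxo+Cyta, with 93.2, 195, 126 and 95.4 in Doxo+Cyta+DAC, and its decitabine values exceeded all others, by 1.12 ± 0.23 against Doxo (edgeR adjusted p = 0.000929) and 1.19 ± 0.23 against Doxo+Cyta (edgeR adjusted p = 0.000559). PSMG4, a chaperone of proteasome assembly, was higher in Doxo+Cyta+DAC than in Doxo by 1.2 ± 0.24 (edgeR adjusted p = 0.000724).

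Of 11 tested cell death, immune and signalling genes, 3 were called lower than NT in Doxo (DUSP22, TBC1D7 and WRNIP1; 4.63% of all tested genes were), and in Doxo+Cyta+DAC 4 were lower (DUSP22, SERPINB1, SERPINB6 and NEDD9; 23.7%) and 2 higher (RIPK1 and CD83; 24.9%). RIPK1 (chr6:3076824-3115187) had 15.6 and 18.6 CPM in NT, 17, 11.9 and 13.1 in Doxo, 9.33, 13 and 10.1 in Doxo+Cyta, with 28, 44.1, 28.6 and 22.7 in Doxo+Cyta+DAC. All decitabine relapses lay above NT and above all Doxo and Doxo+Cyta libraries, by 1.14 ± 0.22 against Doxo and 1.52 ± 0.22 against Doxo+Cyta (edgeR adjusted p = 0.000446 and 4.54e-05). Without library 31 these differences were 0.92 ± 0.18 and 1.3 ± 0.18 (edgeR adjusted p = 0.000711 and 5.45e-05). CD83, a surface protein of activated antigen-presenting cells, had 11.1 and 10.1 CPM in NT, 9.84, 10.2 and 9.21 in Doxo, 7.97, 12.3 and 7.64 in Doxo+Cyta, with 13.4, 38.9, 24.8 and 13.9 in Doxo+Cyta+DAC. Its decitabine libraries all lay above the other groups, from values close to them in 30 and 33 to the highest in 31, and the difference from Doxo was 1.22 ± 0.32 (edgeR adjusted p = 0.00458).

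SERPINB1, an inhibitor of neutrophil proteases, had 165 and 150.4 CPM in NT, 79.7, 110.0 and 103 in Doxo, 116, 136 and 167 in Doxo+Cyta, with 46.5, 88.3, 49.1 and 41.4 in Doxo+Cyta+DAC, and was lower than in Doxo+Cyta by -1.31 ± 0.22 (edgeR adjusted p = 0.000162) and than in Doxo by -0.80 ± 0.22 (edgeR adjusted p = 0.00673). Its neighbour SERPINB6, an intracellular inhibitor of the same family, had 80.2 and 71.9 CPM in NT, 50.9, 49.9 and 47.9 in Doxo, 54.7, 82.9 and 67.4 in Doxo+Cyta, with 48.9, 65, 43.8 and 40.2 in Doxo+Cyta+DAC. Doxo+Cyta 20 lay above both NT libraries in SERPINB6. Doxo+Cyta+DAC differed from Doxo+Cyta by -0.47 ± 0.16 (edgeR adjusted p = 0.0232) and without library 31 by -0.62 ± 0.14 (edgeR adjusted p = 0.00249), a call lost without Doxo+Cyta 20, Doxo+Cyta+DAC 32 or Doxo+Cyta+DAC 33 and with only the groups compared. Its difference from Doxo was -0.0037 ± 0.16. SERPINB9 of the same cluster had a mean of 1.1 CPM, too low for a comparison among the 3.

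The last list, of cytoskeleton, adhesion and secreted factors, had 5 tested genes. None was called by edgeR in Doxo or Doxo+Cyta against NT, and in Doxo+Cyta+DAC DSP and NRN1 were lower (23.7% of all tested genes were) and TUBB2A higher (24.9%). TUBB2A, a beta-tubulin isotype, had 4.37 and 4.7 CPM in NT, 6.49, 6.75 and 7.82 in Doxo, 4.51, 5.07 and 4.21 in Doxo+Cyta, with 7.84, 8.87, 6.71 and 6.89 in Doxo+Cyta+DAC. Every Doxo and decitabine library lay above both NT libraries, Doxo+Cyta libraries lay around them, and Doxo+Cyta+DAC exceeded Doxo+Cyta by 0.72 ± 0.16 (edgeR adjusted p = 0.00171). Its near-identical neighbour TUBB2B did not reach the count minimum, and reads that fit both genes may have been left out. NRN1, a membrane-anchored neurite growth factor, had 65.1 and 58.3 CPM in NT, 41.3, 65.4 and 64.8 in Doxo, 70.5, 56.1 and 89.9 in Doxo+Cyta, with 14.6, 23.5, 12.8 and 16.2 in Doxo+Cyta+DAC. It had the highest fitted value of the genes with at least 5 CPM in Doxo+Cyta against NT (0.23 ± 0.25), and all decitabine relapses lay far below the other groups, by -1.77 ± 0.22 against Doxo and -2.11 ± 0.22 against Doxo+Cyta (edgeR adjusted p = 1.33e-05 and 2.54e-06). PHACTR1, a phosphatase and actin regulator, had 12.2 and 13.5 CPM in NT, 11.5, 15.6 and 12.6 in Doxo, 13.1, 12.9 and 18.8 in Doxo+Cyta, with 16.4, 23.2, 17.4 and 15.7 in Doxo+Cyta+DAC. Doxo+Cyta+DAC exceeded Doxo by 0.46 ± 0.18 (edgeR adjusted p = 0.043). That call was lost without Doxo 4, Doxo 6, Doxo+Cyta+DAC 31 or Doxo+Cyta+DAC 32, with upper-quartile scaling, and with 10 counts required in every sample.

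Exon length and strand did not enter the choice of the window. The median exon length of the distal 6p genes was 3359 bases against 3166 for all tested genes, and 53.0% against 50.3% lay on the plus strand. Of the 67 genes, 56 stood in one of the role lists, and 11 stood in none: LINC00266-3, GMDS-AS1, MYLK4, LINC01011, HTATSF1P2, PPP1R3G, LOC100129461, C6orf52, SMIM13, TMEM170B and GFOD1. Among these TMEM170B, a membrane protein, had 7.15 and 8.99 CPM in NT, 2.72, 2.79 and 3.66 in Doxo, 4.26, 1.8 and 5.44 in Doxo+Cyta, with 5.02, 8.59, 5.09 and 4.99 in Doxo+Cyta+DAC, with the lowest fitted value of the genes with at least 5 CPM in both Doxo (-1.4 ± 0.36) and Doxo+Cyta (-1.06 ± 0.35) against NT, and Doxo+Cyta+DAC 31 at the NT level.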

How the data were processed

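Counts per gene in 12 RNA-seq libraries of HEL cells were analysed, grouped by the treatment label alone. The values are raw, whole-number counts that the authors deposited, made with featureCounts 1.6.0 from TruSeq paired-end reads aligned to GRCh38 with Bowtie2 2.2.8, per the submitters' processing notes and the file header. Strand was ignored, and fragments with several placements or genes were left out by default. Genes with overlapping exons, also those on opposite strands, can therefore lose reads. The series text names 3 untreated replicates, and the 2 labelled ones were used. Of 26485 rows 4 lacked a count. One gene of the window is not reported here.

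Counts were tested with edgeR 4.0.16 (R 4.3.3): filterByExpr, TMM scaling, and 1 quasi-likelihood fit (glmQLFit, glmQLFTest) of all 12 samples, two-sided, with Benjamini-Hochberg adjustment over all tested genes of a comparison. Calls are at an adjusted p under 0.05. Log2 CPM used a prior count of 2, and CPM are TMM-scaled, printed without a final zero. The fit was tested on simulated data with known fold changes. P-values measure the spread between cultures of 1 line. The window, the role lists and the rules were chosen with earlier results of these data known. Genes described one by one were set by rule from those with a mean of at least 5 CPM: the 8 lowest and 8 highest in Doxo+Cyta+DAC against NT, the 4 lowest and 4 highest in each other contrast with NT, the 4 of widest range over decitabine libraries, genes above NT in all of these, and the extremes of each role list. Other named genes serve the account of which genes follow or break, and were chosen after their values were seen. Promoters came from RefSeq (GRCh38.p14). Depth was 12763582 to 19106235 counts. Alternatives were DESeq2 1.42.0, RLE, upper-quartile or no scaling, other count filters, only the groups compared, other window borders, steps of 0.2 and 0.5, single NT references, and leaving out each library. Other steps used Python 3.11.15, numpy 2.4.6, pandas 2.3.3 and matplotlib 3.10.9.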

Additional observations from a re-analysis of the deposited data

Results flagged for a closer look

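In 1 of the 25 sets of 4 decitabine values examined, a library stood apart by Dixon's ratio. Chance alone flags about 1 of 20 independent sets, but these sets come from the same 4 libraries, so that rate does not apply as it stands. TMEM170B had 5.02, 8.59, 5.09 and 4.99 CPM in Doxo+Cyta+DAC 30 to 33, and the gap between library 31 and the nearest of the others was 0.963 of the whole range on the log2 scale, past the 95% critical value for 4 samples.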

How the results depend on the processing

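No paired analysis was possible because the groups share no replicate numbers. Fits without an NT library leave 1 and assume that it varies like the other groups.

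The median of distal 6p genes kept its sign in each contrast with NT and in 9 relapse libraries under all alternatives tried. In Doxo+Cyta+DAC 31 it was 0.04 and turned to -0.08 with no scaling beyond the total count. With that setting it moved to -0.77, -0.75 and -0.75 in Doxo 4, 5 and 6 and -0.77 in Doxo+Cyta 20, and with NT 1 as the only reference to -0.79 in Doxo 4. With borders at 15000000 and 25000000 bases the fitted median in Doxo was -0.70 and -0.58. Counts of calls moved more. With only the groups compared, 33 genes were lower in Doxo than in NT. DESeq2 gave 29 calls in Doxo, 1 of them higher, with 4 lower in Doxo+Cyta, and 1 lower and 1 higher in Doxo+Cyta against Doxo. With no filter on low counts 3 were lower in Doxo+Cyta. With 10 counts in every sample, 10 were lower in Doxo+Cyta+DAC than in Doxo+Cyta and 8 lower than in Doxo.

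Leaving out 1 library gave 15 to 36 genes lower and 1 to 9 higher in Doxo+Cyta+DAC against NT (median -0.61 to -0.33), 0 to 20 lower and 0 to 1 higher in Doxo (median -0.72 to -0.60), 12 to 24 lower and 14 to 22 higher in Doxo+Cyta+DAC against Doxo+Cyta (median -0.05 to 0.23), and 8 to 14 lower and 19 to 28 higher against Doxo (median 0.08 to 0.39). A step of 0.5 left 1, 1, 3, 15, 11 and 3 genes that broke in Doxo 5, Doxo 6, Doxo+Cyta 22 and Doxo+Cyta+DAC 31, 32 and 33, and 31 and 15 that followed in Doxo+Cyta 19 and 22, and a step of 0.2 gave 8 that broke in Doxo+Cyta+DAC 33.

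Of the single-gene values against NT chosen by rule, 3 changed sign, all near 0. PHACTR1 in Doxo was at -0.00223 with upper-quartile scaling and at -0.11 to 0.12 when 1 library was left out, NRN1 in Doxo at -0.243 to 0.0466 and TUBB2A in Doxo+Cyta at -0.0764 to 0.0705. Without library 31, 10 genes were called lower in Doxo+Cyta+DAC than in NT that were not with it: SLC22A23, EXOC2, WRNIP1, NQO2, SSR1, MAK, GMPR, RANBP9, DEK and KDM1B. The fitted value then also changed sign in 3 of 66 genes against NT, 7 against Doxo and 4 against Doxo+Cyta, among them SIRT5 (-0.067) and ECI2 (-0.087) against Doxo, and none of these was called with or without it. The cause of these changes was not tested. With 2 NT libraries, contrasts with NT have the least precision, and genes under 5 CPM are described by their counts over libraries more than by single values.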
